A study of Homo sapiens with 12 samples.

Results

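The genes described here are 10 genes of inflammation, which encode secreted mediators and the enzyme that starts prostaglandin synthesis: the cytokines IL1A, IL1B, IL6, IL11 and LIF, the chemokines IL8, CXCL1, CXCL2 and CCL2, and the inducible cyclooxygenase PTGS2. They were picked by gene symbol out of 22257 genes in the count files, and each symbol was carried by 1 transcript. Of the 10 genes, 9 had enough reads to be among the 14416 genes tested. CXCL2 did not, and its counts are given below. RNA was sequenced from LN229, an established line grown from a human glioblastoma, kept for 24 hours in RPMI medium with 10% dialyzed serum, which itself brings little glucose. There were 4 libraries at 10 mM glucose, 4 at 1 mM glucose with 5 mM acetate, and 4 at 1 mM glucose without acetate, and cells were at about 80% confluency when treatment began. The design asks what glucose supply does to the transcriptome of these cells, and what acetate does when glucose is low. The labels number the libraries of a group 1 to 4 without saying that they came from separate cultures, so p-values measure the spread between these libraries, which may be technical.

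IL1A and IL1B encode the alpha and beta forms of interleukin-1, which bind the same receptor and switch on NF-kB in the receiving cell. IL6, IL11 and LIF signal through receptors that share the gp130 chain, IL8 and the CXCL chemokines draw neutrophils, CCL2 draws monocytes, and PTGS2 makes the prostaglandin precursor. In many cell types these genes are switched on together by NF-kB, AP-1 and C/EBP factors, and their short-lived mRNAs carry AU-rich stretches after the stop codon that decay factors such as ZFP36 bind. Glioblastoma cells are known to release several of them.

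Promoter sequences of IL6, IL8, CXCL1, CXCL2 and PTGS2 are given here, since these factors act there and CXCL1 and CXCL2 can be set side by side. Each is the 120 bases before the start in RefSeq (GRCh38.p14), read 5′ to 3′ on the gene's strand, and capitals mark matches to a short NF-kB motif, GGNNNTTCC, or to the TATA motif, TATAAA.
IL6, chr7:22727080-22727199, plus strand: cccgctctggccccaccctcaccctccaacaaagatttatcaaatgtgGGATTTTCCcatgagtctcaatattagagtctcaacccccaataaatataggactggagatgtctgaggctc
IL8 (now CXCL8), chr4:73740449-73740568, plus strand: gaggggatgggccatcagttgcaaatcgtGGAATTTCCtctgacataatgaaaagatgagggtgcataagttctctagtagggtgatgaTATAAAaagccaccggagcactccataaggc
CXCL1, chr4:73869273-73869392, plus strand: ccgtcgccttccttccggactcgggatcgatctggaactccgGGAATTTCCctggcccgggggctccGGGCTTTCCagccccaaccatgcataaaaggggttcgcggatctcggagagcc
CXCL2, chr4:74099196-74099315, minus strand: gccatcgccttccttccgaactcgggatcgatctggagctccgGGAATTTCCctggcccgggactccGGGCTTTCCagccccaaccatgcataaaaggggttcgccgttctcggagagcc
PTGS2, chr1:186680424-186680543, minus strand: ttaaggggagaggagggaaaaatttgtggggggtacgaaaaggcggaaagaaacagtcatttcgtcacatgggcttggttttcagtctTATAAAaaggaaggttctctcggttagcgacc
RefSeq's promoter table held 8 of the 10 genes, all but LIF and CCL2. Those of IL1A, IL1B and IL11 are not printed and had no match to the short NF-kB motif. The printed sequences thus do not stand for all 8. Over 250 bases before the start and on both strands, GGNNNTTCC was found in 4 of these 8 (IL6, IL8, CXCL1 and CXCL2), against 17.1% of 35116 promoters. An NF-kB consensus of stricter letters, which overlaps the short motif, was found in 3 (IL6, CXCL1 and CXCL2), against 9.96% of promoters. The AP-1 motif TGANTCA stood before IL1A, IL8 and IL11, the C/EBP motif TTNNGCAA before IL1B, IL6, CXCL2 and PTGS2, and TATAAA before IL1A, IL8 and PTGS2, against 6.57%, 9.05% and 10.7% of all promoters. The composite C/EBP-ATF motif TGATGNAA, present in 3.14% of promoters, was in none of the 8. The CXCL1 and CXCL2 windows were identical at 113 of 121 aligned positions, and both held GGAATTTCC and GGGCTTTCC. IL1A has 2 starts and was counted if either matched, while the shares are of single promoters. Its TATA match lay 239 to 234 bases before the first start, and the second start had none. Those of IL8 and PTGS2 lay at 31 to 26 and 32 to 27 bases. All of these are matches of letters and do not show that a factor binds.

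**Figure D1:**
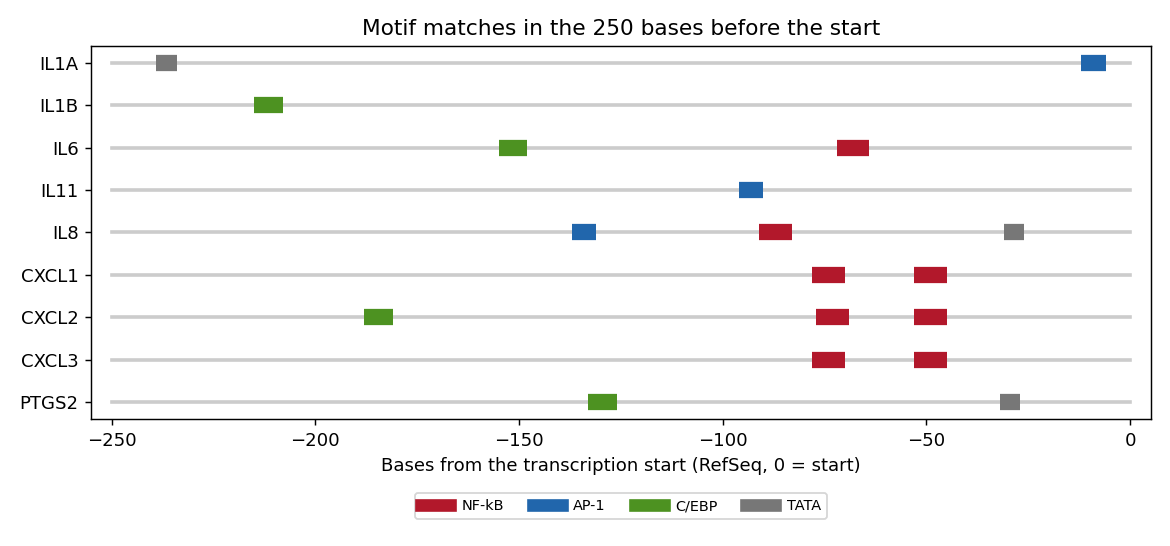
Matches to 4 motifs in the 250 bases before the transcription start (horizontal axis, bases, 0 = start) of the 8 genes with a RefSeq promoter and of the neighbouring chemokine CXCL3. Each bar is a match to NF-kB (GGNNNTTCC), AP-1, C/EBP or TATA, IL1A is shown for the first of its starts, and the NF-kB matches of IL6, IL8 and the CXCL genes lie within 91 bases of the start.

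The AU-rich nonamer TTATTTATT followed the stop codon in 7 of the 10 transcripts, and it was found anywhere in the transcript of 8.53% of the 13699 tested genes matched to the annotation used (GENCODE v29). The first such site of each is shown with 10 bases on either side, with the nonamer in capitals, since these are the letters that ZFP36 proteins are known to favour.
IL1B: gcttccctatTTATTTATTtatttgtttg
IL11: aagccagatcTTATTTATTtatttatttc
LIF: ctccgggcccTTATTTATTatttaaacat
IL8: atgtaaagtaTTATTTATTtgaatctaca
CXCL1: agtcttctatTTATTTATTtattcattag
CXCL2: agtcttctatTTATTTATTtatttattta
PTGS2: atgatcatatTTATTTATTtatatgaacc
The PTGS2 site began 18 bases after the stop codon, the earliest of the 7, and the LIF site 2675 bases after it, the latest. IL1A, IL6 and CCL2 had no nonamer. The shorter AU-rich pentamer ATTTA occurred 22 times after the stop codon of PTGS2, 6 times in IL6, 5 times in IL1A and 1 time in CCL2. IL8, CXCL1 and CXCL2 lie in 1 stretch of chromosome 4 with CXCL3, and IL1A and IL1B are neighbours on chromosome 2.

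Gene counts totalled 24.4 to 27.2 megacounts per library, and levels are given as CPM, the counts of a gene per megacount of its library, after TMM scaling, which assumes that most genes do not differ between libraries. Replicate 3 of 1 mM glucose and replicate 1 of acetate stood apart from the others of their groups over all genes: the chi-square of counts per degree of freedom was 20.3 to 51.6 in pairs with that 1 mM library and 23.9 to 39.4 in pairs with that acetate library, against 2.77 to 10.2 in all other pairs within groups. Neither was left out, and values without them are given where that changes the call of 1 of the 10 genes or a count given for a list. Of 8 glial and glioblastoma markers all were tested, with summed levels of 5882 to 5998 CPM at 10 mM glucose, 6031 to 6477 CPM with acetate and 6432 to 7692 CPM at 1 mM. VIM gave most of that sum. With 10 mM against 1 mM glucose 3 of the 8 were higher and 3 lower, or 3 and 2 with library totals. Over all tested genes 33.7% were higher and 33.8% lower. NES (1053 against 452 CPM), SOX2 (75.4 against 14.3) and S100B (186 against 86.6) were higher, with edgeR adjusted p of 1.2e-07 or below. VIM (−0.48), CD44 (−0.47) and EGFR (−0.58 on the log2 scale, edgeR adjusted p = 0.0328) were lower. The astrocyte protein GFAP averaged 0.848 CPM at 10 mM, 1.14 CPM with acetate and 0.98 CPM at 1 mM. The 9 markers of immune cells, which also make these cytokines, had 2 genes tested and summed to 18.9 to 22.7 CPM at 10 mM, 62.7 to 69.3 CPM with acetate and 55.7 to 65.9 CPM at 1 mM. CD68, a lysosomal protein that other cells make too, gave nearly all of that sum, while TYROBP had no count and PTPRC and CD14 averaged at most 0.447 and 0.313 CPM in any group. The 5 endothelial markers together stayed at or below 1.88 CPM, and the 6 fibroblast markers summed to 43.2 to 49 CPM, 42.2 to 44.6 CPM and 33 to 37.7 CPM in the same order, and the part of these sums in the results was not tested.

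With 10 mM glucose, 8 of the 9 tested genes were lower than with 1 mM glucose and none was higher. PTGS2, IL6 and IL1A were lower by about an order of magnitude, IL8, IL1B and IL11 by several fold, CXCL1 by less, and LIF only slightly. CCL2 was the 1 gene not called. In the same test (edgeR quasi-likelihood, adjusted p under 0.05), 67.5% of all tested genes were called, 33.8% lower and 33.7% higher. The median log2 fold change of the 9 genes was −1.64, against 0 over all tested genes, whose 5th and 95th percentiles were −1.21 and 1.14. Groups did not overlap for 7 of the 9, all of them lower, against 30.3% of all tested genes. In a bulk measurement, fewer cells making a transcript and less of it per cell cannot be told apart. Scaled by library totals instead, the median of all genes moved up by 0.14 and 63.3% of called genes were higher, against 49.9% with TMM.

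IL1A stood at 3.25, 3.16, 3.06 and 2.91 CPM in the 10 mM libraries, at 36.1, 35.8, 38.6 and 29.9 CPM with acetate, and at 28.8, 27.5, 26.4 and 30.6 CPM at 1 mM. Every 10 mM library lay far below the other 8, and the acetate and 1 mM libraries met only at the lowest acetate library. The log2 fold change of 10 mM against 1 mM glucose was −3.19 ± 0.09 (SE, n = 4 each), or 9.15-fold lower (edgeR adjusted p = 1.1e-12), and 0.652% of tested genes changed more. IL1B, made as a precursor that caspase-1 cleaves, was rarer, at 1.08, 1.45, 1.31 and 1.31 CPM in 10 mM glucose, 5.88, 6.49, 7.57 and 6.01 CPM with acetate, and 3.18, 4.35, 4.76 and 3.83 CPM in 1 mM. The groups formed 3 separate bands, with acetate on top and 10 mM glucose at the bottom. IL1B was 3.11-fold lower with 10 mM than with 1 mM glucose (−1.64 ± 0.16, edgeR adjusted p = 3.0e-07).

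Among the gp130 cytokines, IL6, a fever and acute-phase cytokine, had 0.581, 0.436, 0.838 and 0.546 CPM with 10 mM glucose, 8.32, 7.9, 6.09 and 6.8 CPM with acetate, and 8.18, 4.97, 7.21 and 6.77 CPM with 1 mM. The 10 mM libraries held 12 to 23 reads each and lay below the rest, while the acetate and 1 mM libraries mixed. IL6 was 11.2-fold lower with 10 mM than with 1 mM glucose (−3.49 ± 0.21, edgeR adjusted p = 2.2e-09). IL11, a cytokine tied to tissue fibrosis and bone turnover, read 14.5, 15.8, 16.9 and 16.9 CPM at 10 mM, 43.6, 39.4, 39.5 and 36.7 CPM with acetate, and 42.1, 41, 46.3 and 45.8 CPM at 1 mM. Again the 10 mM libraries were apart and the other groups overlapped, and the change of 10 mM against 1 mM was −1.45 ± 0.07 (2.73-fold lower, edgeR adjusted p = 2.6e-10). LIF, which keeps mouse embryonic stem cells undifferentiated, was abundant everywhere, at 357, 365, 418 and 391 CPM with 10 mM glucose, 580, 671, 700 and 716 CPM with acetate, and 393, 442, 505 and 444 CPM with 1 mM. Here the 10 mM and 1 mM libraries overlapped and acetate stood above both. The LIF change of −0.22 ± 0.08 passed the test (edgeR adjusted p = 0.029), but not when libraries were scaled by their totals (−0.08, adjusted p = 0.4). It also missed the threshold without 1 mM replicate 3 (−0.16, adjusted p = 0.084), 1 mM replicate 4 (adjusted p = 0.0503), 10 mM replicate 1 (0.0867) or 10 mM replicate 2 (0.0776). It passed under the other alternatives, among them 1 mM replicate 3 and acetate replicate 1 both left out (−0.16, adjusted p = 0.0139) and the trend on transcript length and GC content removed (−0.30, adjusted p = 0.00129).

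IL8, the main neutrophil chemokine in humans, had 28.3, 31.8, 36.1 and 42.6 CPM with 10 mM glucose, 262, 268, 266 and 225 CPM with acetate, and 177, 179, 200 and 215 CPM with 1 mM. The 3 groups did not overlap, and replicate 4 of acetate was low for its group. IL8 was 5.56-fold lower with 10 mM than with 1 mM glucose (−2.47 ± 0.11, edgeR adjusted p = 9.8e-11). CXCL1, which acts on the same receptor CXCR2, had 34.8, 37.9, 44.8 and 49 CPM with 10 mM, 89.6, 82.2, 84.8 and 78.1 CPM with acetate, and 56.8, 54.8, 77.8 and 75 CPM with 1 mM. Its 3 groups stood in the same order without overlap but closer together, and the 1 mM libraries split into a lower and a higher pair. CXCL1 was 1.59-fold lower with 10 mM than with 1 mM glucose (−0.67 ± 0.12, edgeR adjusted p = 2.2e-04).

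CXCL2, whose promoter nearly repeats that of CXCL1, had counts of 0, 0, 0 and 3 with 10 mM glucose, 1, 3, 1 and 3 with acetate, and 0, 0, 3 and 2 with 1 mM. Those are 16 reads over 12 libraries, against 19968 for CXCL1 and 2309 for CXCL3. No library exceeded 3 counts, which is 0.109 to 0.123 CPM at these depths, so no fold is given and a difference was not detectable at this depth. Entered without a filter on low counts, CXCL2 gave edgeR adjusted p = 0.609 for 10 mM against 1 mM, 0.789 for acetate and 0.34 for 10 mM against acetate. How reads that fit several places were counted is not given in the sources used here. Of all 36-base windows of the CXCL2 transcript, 83.5% matched neither CXCL1 nor CXCL3, and of 100-base windows none was shared.

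CCL2 had 19.2, 21, 24.9 and 24.9 CPM with 10 mM glucose, 31.8, 30.3, 27.7 and 25.9 CPM with acetate, and 16.9, 17.7, 25.9 and 19.9 CPM with 1 mM. The 10 mM libraries lay within the span of the 1 mM libraries, and replicate 3 of 1 mM glucose was the high one of its group. The change of 10 mM against 1 mM was 0.16 ± 0.13 on the log2 scale, with a 95% interval of −0.11 to 0.43 (edgeR adjusted p = 0.268). It was called higher when replicate 3 of 1 mM glucose was left out (0.31, adjusted p = 0.0143). The same held with that library and replicate 1 of acetate both left out (0.31, adjusted p = 0.00353). It was also called higher with library totals (0.30, adjusted p = 0.0467) and with the trend on transcript length and GC content removed (0.45, adjusted p = 4.5e-04). CCL2 has the shortest transcript of the 10 genes, at 741 bases. PTGS2, the longest at 4514 bases, had 8.55, 9.76, 8.31 and 9.42 CPM with 10 mM glucose, 64.5, 78.7, 86.4 and 75.4 CPM with acetate, and 117, 130, 83 and 119 CPM with 1 mM. The 10 mM libraries were far below the rest, and replicate 3 of 1 mM glucose, high for CCL2, was the low one of its group here. PTGS2 had the largest fold of the 9 genes, 12.4-fold lower with 10 mM than with 1 mM glucose (−3.64 ± 0.14, edgeR adjusted p = 1.3e-11), and 0.43% of tested genes changed more.

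**Figure D2:**
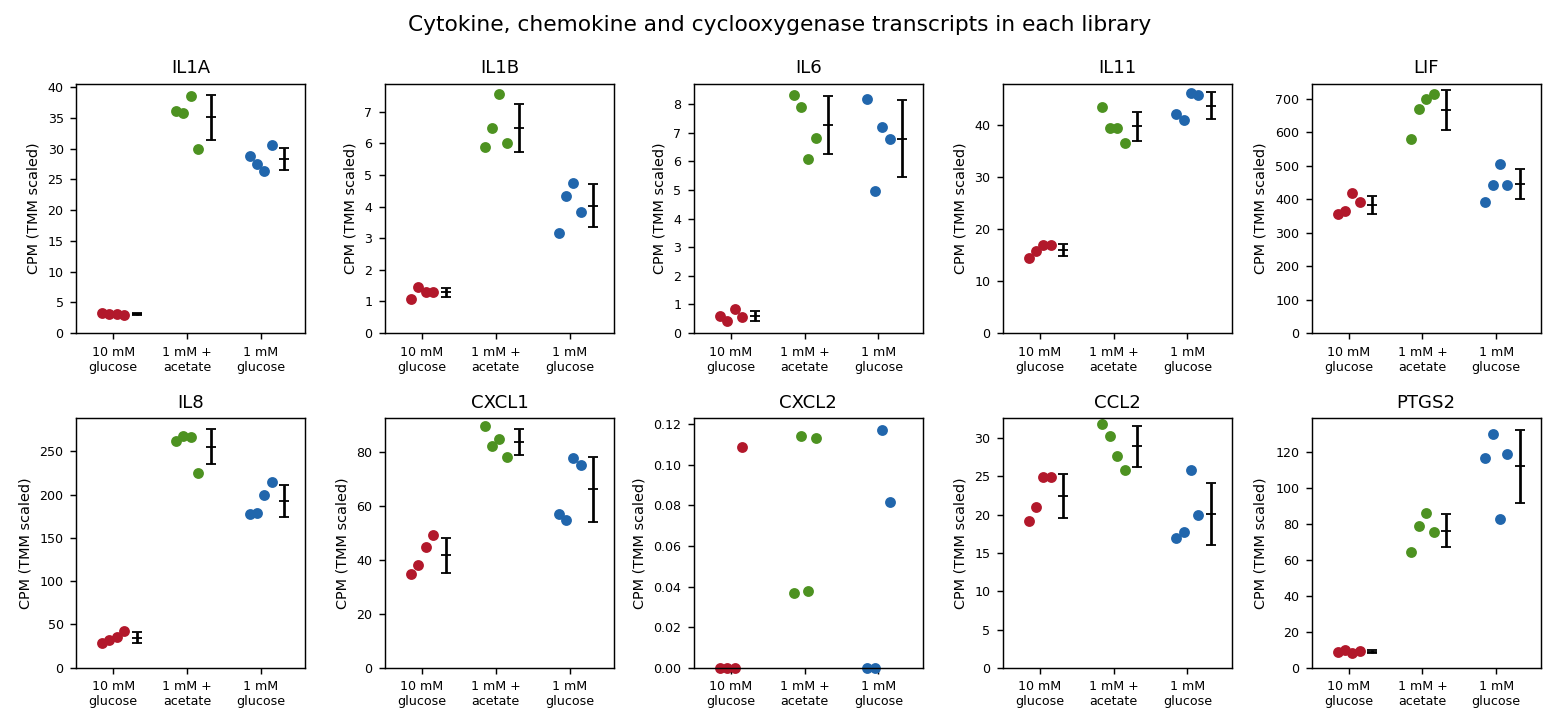
Level of each gene in each library (vertical axes, TMM-scaled CPM, each with its own scale from 0), with 1 point per library and, beside it, mean and SD of the 4 libraries (none for CXCL2, which had 0 to 3 counts). The 10 mM libraries lie below all others for IL1A, IL1B, IL6, IL11, IL8, CXCL1 and PTGS2, and the acetate libraries lie above all others for IL1B, LIF, IL8 and CXCL1.

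With acetate at 1 mM glucose no called change passed 1.61-fold, and the genes did not all go the same way. IL1B, LIF, CCL2, IL8 and IL1A rose, by 1.24-fold to 1.61-fold, while PTGS2 fell by 0.56 on the log2 scale. IL6, IL11 and CXCL1 did not pass the test. These are 5 genes higher and 1 lower of the 9 tested, against 6.65% and 7.09% of all 14416 tested genes, of which 13.7% were called in either direction. The median log2 fold change of the 9 genes was 0.34, against 0 over all tested genes, whose 5th and 95th percentiles were −0.37 and 0.41. The acetate libraries lay above all 1 mM libraries for 4 of the 9 genes (IL1B, LIF, IL8 and CXCL1), against 7.35% of all tested genes. With library totals, 65.2% of all called genes were higher, against 48.4% with TMM.

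IL1B averaged 6.49 ± 0.769 CPM with acetate and 4.03 ± 0.683 CPM without it (SD, n = 4 each), a rise of 0.68 ± 0.12 on the log2 scale (edgeR adjusted p = 0.00244). LIF averaged 667 ± 61 CPM with acetate and 446 ± 45.8 CPM without it, a change of 0.58 ± 0.08 (edgeR adjusted p = 5.0e-04). CCL2 averaged 28.9 ± 2.65 CPM with acetate and 20.1 ± 4.09 CPM without it, a change of 0.52 ± 0.13 (edgeR adjusted p = 0.0132), and its groups met only at the high 1 mM library. These rises, and the fall of PTGS2, passed the test under every alternative in which the gene was tested, with adjusted p of at most 0.049. PTGS2 averaged 76.2 ± 9.09 CPM with acetate and 112 ± 20.2 CPM without it, a change of −0.56 ± 0.12 (edgeR adjusted p = 0.00619). Its groups overlapped only because replicate 3 of 1 mM glucose stood at 83 CPM, below 1 acetate library at 86.4 CPM. Without that library and replicate 1 of acetate the PTGS2 change was −0.61 (adjusted p = 3.1e-07).

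IL8 averaged 255 ± 20 CPM with acetate and 193 ± 18.1 CPM without it, a change of 0.40 ± 0.10 (edgeR adjusted p = 0.0195). The IL8 call was lost without replicate 1 of 1 mM glucose (0.36, adjusted p = 0.0677) or without replicate 2 or 3 of acetate (0.38, adjusted p = 0.0589 and 0.0564). IL1A averaged 35.1 ± 3.71 CPM with acetate and 28.3 ± 1.79 CPM without it, a change of 0.31 ± 0.08 (edgeR adjusted p = 0.0145), lost without replicate 3 of acetate (0.26, adjusted p = 0.0526). CXCL1 did not pass although its groups did not overlap, with a change of 0.34 ± 0.12 and an interval of 0.08 to 0.60 (edgeR adjusted p = 0.0759). It passed without replicate 3 of 1 mM glucose (0.43, adjusted p = 0.0218), and with that library and replicate 1 of acetate both left out (0.39, adjusted p = 0.0079). The IL6 change of 0.10 ± 0.14 had an interval of −0.21 to 0.41 (edgeR adjusted p = 0.688), and turned to −0.02 without replicate 2 of 1 mM glucose, its lowest library. For IL11 the change was −0.14 ± 0.07, with an interval of −0.28 to 0.01 (edgeR adjusted p = 0.201).

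Against 1 mM glucose with acetate, 10 mM glucose gave lower levels of all 9 tested genes, and no gene's groups overlapped. In this comparison 31.8% of all tested genes were called lower, 31% higher and 62.8% in either direction, and groups did not overlap, with 10 mM lower, for 30.1%. The median log2 fold change of the 9 genes was −2.32, and 60.8% of all called genes were higher with library totals, against 49.4% with TMM. IL6 was 12-fold lower (−3.59 ± 0.21), IL1A 11.3-fold (−3.50 ± 0.09), PTGS2 8.45-fold (−3.08 ± 0.13) and IL8 7.36-fold (−2.88 ± 0.11), with edgeR adjusted p of 9.8e-11 or below for all but IL6 (2.0e-09). The smallest change was that of CCL2, at −0.36 ± 0.12 (edgeR adjusted p = 0.0202), with means of 22.5 ± 2.86 CPM at 10 mM and 28.9 ± 2.65 CPM with acetate. CCL2 lost the call with library totals (−0.26, adjusted p = 0.0859), with the length and GC trend removed (−0.10, adjusted p = 0.347), and without acetate replicate 2 (adjusted p = 0.0505), 10 mM replicate 1 (0.0697) or 10 mM replicate 2 (0.0564). LIF, at −0.80 ± 0.08 (edgeR adjusted p = 1.1e-06), was 1.74-fold lower than with acetate but 1.17-fold lower than with 1 mM glucose alone. The 3 comparisons share libraries pairwise, so their fold changes are not independent of each other.

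**Figure D3:**
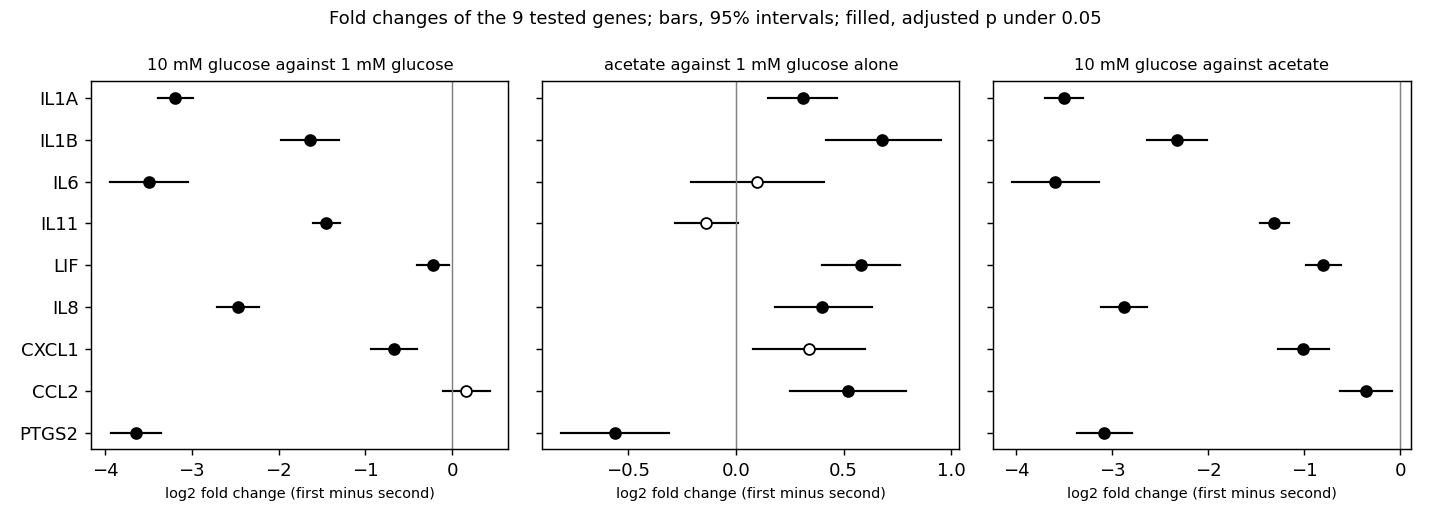
log2 fold changes of the 9 tested genes (horizontal axes, first-named group minus second) with 95% intervals, with 10 mM against 1 mM glucose on the left, the effect of acetate at 1 mM in the middle and 10 mM against acetate on the right. Filled points passed an edgeR adjusted p of 0.05, and the horizontal scales differ, the acetate panel running from PTGS2 at −0.56 to IL1B at 0.68.

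Scaled by transcript length, the order of levels among the genes differed between media. With 10 mM glucose LIF led at 96.4 ± 6.9 CPM per kilobase, followed by CXCL1 (38 ± 5.86) and CCL2 (30.4 ± 3.86), whose libraries overlapped, and then IL8 at 20.3 ± 3.6 CPM per kilobase. In acetate, LIF (168 ± 15.4 CPM per kilobase) and IL8 (150 ± 11.8) overlapped at the top. In 1 mM glucose IL8 (113 ± 10.6 CPM per kilobase) and LIF (112 ± 11.5) did so too. IL8 thus stood in the fourth place at 10 mM and level with LIF in the other media. In the middle of the order, IL11, PTGS2 and IL1A overlapped with acetate at 16.5 to 17.4 CPM per kilobase, and with 1 mM glucose PTGS2 (24.9) overlapped both CCL2 (27.1) above it and IL11 (19.2) below it, which did not overlap each other. IL6 and IL1B were the lowest tested genes in each medium, and their libraries overlapped only at 10 mM, with averages of 0.508 and 0.791 CPM per kilobase there.

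**Figure D4:**
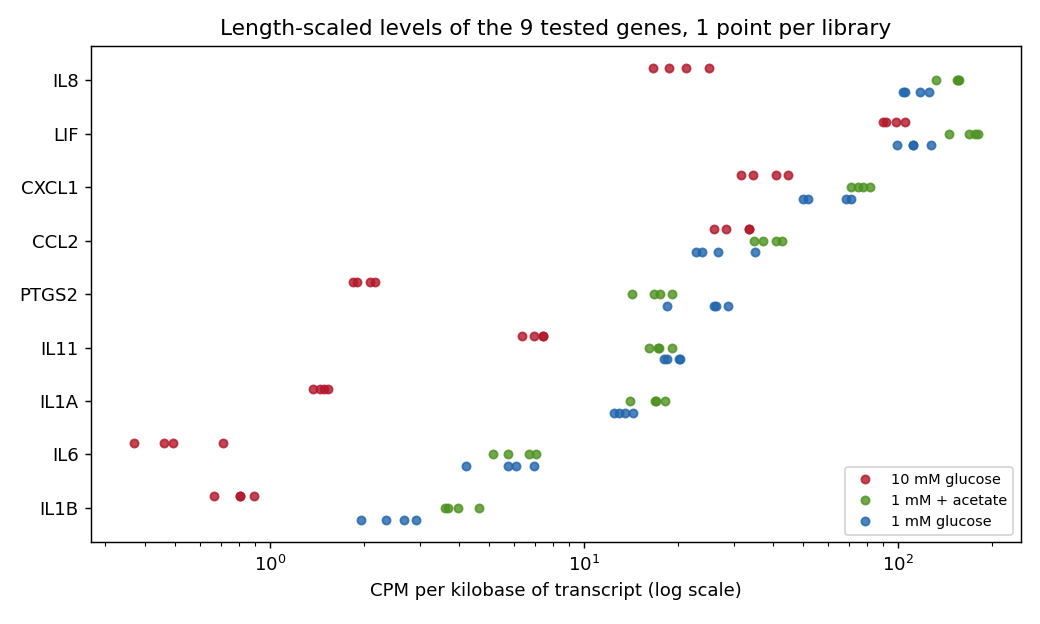
Length-scaled level (horizontal axis, CPM per kilobase of transcript, log scale) of the 9 tested genes, with 1 point per library coloured by medium. IL8 averages 20.3 CPM per kilobase in the 10 mM libraries, 150 in those with acetate and 113 in those at 1 mM, while CCL2 stays between 22.8 and 42.9 in all libraries.

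Several of these genes were noisier between replicates than a typical gene. The biological coefficient of variation that edgeR estimated was 13.4% for IL6 and 12.1% for CXCL1, CCL2 and PTGS2, against a median of 7.51% over all tested genes. It was lowest for IL11 (6.75%) and IL1A (7.77%). Deviations from the group mean were counted by library. They are centred over the 4 libraries of a group, so a low library puts others above the mean. In replicates 3 and 4 of 10 mM glucose 7 of the 9 genes were above their group mean, and in replicate 1 only IL1A was. At 1 mM 3, 2, 7 and 6 of the 9 were above it in replicates 1 to 4, and with acetate 6, 7, 6 and 1. In replicate 3 of 1 mM glucose LIF, IL1B, IL11, CXCL1 and CCL2 were at their group's highest while PTGS2 and IL1A were at its lowest. Whether these counts differ from those of other genes, and which property of the library they follow, was not tested.

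Other inflammatory cytokines and chemokines were mostly close to absent: 11 of 29 had enough reads to be tested. With 10 mM against 1 mM glucose 7 of the 11 were lower and 3 higher (median log2 fold change −1.16). Over all tested genes, to be set beside this and the later lists, 33.8% were lower and 33.7% higher in this comparison. For acetate against 1 mM glucose those shares were 7.09% and 6.65%. IL24 had 0.582 ± 0.0504 CPM at 10 mM, 3.52 ± 0.426 CPM with acetate and 3.35 ± 0.478 CPM at 1 mM (−2.52 for 10 mM against 1 mM). CCL20, a chemokine for dendritic cells and T cells, had 1.98 ± 0.273, 7.21 ± 0.707 and 7.23 ± 0.928 CPM in the same order (−1.86). CLCF1, another ligand of the gp130 family, fell with acetate as PTGS2 did, with 20.4 ± 1.82 CPM at 10 mM, 49.3 ± 2.95 CPM with acetate and 69.2 ± 4.86 CPM at 1 mM (acetate against 1 mM −0.49 ± 0.07, edgeR adjusted p = 5.3e-04). With acetate 2 of the 11 were lower and none was higher, or 2 and 1 without 1 mM replicate 3 and acetate replicate 1. CXCL3, the neighbour of CXCL2, had 2.41 ± 0.148, 10.2 ± 1.56 and 9.65 ± 1.76 CPM in the same order (10 mM against 1 mM −2 ± 0.15, edgeR adjusted p = 1.9e-08). CXCL6, which lies between IL8 and CXCL1, had no count in any library, and TNF had at most 4.

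Receptors for these ligands were mixed, with 11 of 16 tested, 5 higher and 5 lower with 10 mM than with 1 mM glucose. CXCR1, a receptor of IL8, had no count in any library and CXCR2 at most 2. DARC, an atypical receptor that binds chemokines without signalling through G proteins, was higher with 10 mM, with 6.15 ± 0.321 CPM at 10 mM, 0.688 ± 0.0958 CPM with acetate and 0.615 ± 0.0846 CPM at 1 mM (3.31 ± 0.13 for 10 mM against 1 mM, edgeR adjusted p = 1.4e-11). IL1RAP, the co-receptor for interleukin-1, was lower with 10 mM, at 53.3 ± 2 CPM against 117 ± 16.4 CPM with 1 mM (−1.13). PTGER4, a receptor of prostaglandin E, changed in the direction of PTGS2 in both comparisons, with 1.13 ± 0.0739 CPM at 10 mM, 2.93 ± 0.45 CPM with acetate and 4.32 ± 0.529 CPM at 1 mM. Its changes were −1.94 for 10 mM against 1 mM and −0.56 ± 0.12 for acetate (edgeR adjusted p = 0.00783). The prostaglandin E receptor PTGER2 went the other way, higher with 10 mM than with 1 mM (0.60, edgeR adjusted p = 0.00621). The PTGER2 change with acetate was 0.54 and did not pass (edgeR adjusted p = 0.0542). IL11RA, the receptor of IL11, had 2.05 ± 0.097 CPM at 10 mM, 1.2 ± 0.16 CPM with acetate and 0.787 ± 0.122 CPM at 1 mM. It was higher with 10 mM than with 1 mM (1.38, edgeR adjusted p = 1.1e-06), where IL11 was lower. With acetate it rose by less (0.60, edgeR adjusted p = 0.0305).

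Of 13 other genes of prostaglandin metabolism 11 were tested, and 7 were higher and 1 lower with 10 mM than with 1 mM glucose (median 0.18). The lower gene was PTGES2 (−0.49, edgeR adjusted p = 3.9e-04), the direction of PTGS2. With acetate 2 were higher and 1 lower, PTGES3 (−0.21, edgeR adjusted p = 0.0185), or 3 and 0 with library totals. Without 1 mM replicate 3 and acetate replicate 1 the counts were 7 higher and 2 lower for 10 mM against 1 mM, and 3 and 1 for acetate. PTGES, the inducible prostaglandin E synthase that acts after PTGS2, had 5.8 ± 0.236 CPM at 10 mM, 4.18 ± 0.499 CPM with acetate and 2.98 ± 0.545 CPM at 1 mM, the reverse of the PTGS2 order. Its changes were 0.96 ± 0.12 for 10 mM against 1 mM and 0.49 ± 0.13 for acetate (edgeR adjusted p = 6.8e-06 and 0.0212). AKR1C3, which reduces prostaglandins among other substrates, was higher by 1.15 and TBXAS1, thromboxane synthase, by 0.96 on the log2 scale with 10 mM. Among 10 genes of interleukin-1 processing and release 9 were tested, with 3 higher and 4 lower at 10 mM than at 1 mM, or 4 and 3 with library totals. With acetate 1 was higher and 2 lower, or 1 and 3 without 1 mM replicate 3 and acetate replicate 1. The DNA sensor AIM2 had 4.85 ± 0.292 CPM at 10 mM and 0.401 ± 0.179 CPM at 1 mM. CASP4 (−1.41) and the calpain CAPN2 (−0.70) were lower, and so was NLRP3, the sensor of the inflammasome that matures IL1B (−2.22, edgeR adjusted p = 3.5e-07). NLRP3 fell with acetate (−0.69, edgeR adjusted p = 0.0193), where IL1B rose. Its level was low, at 0.656 ± 0.297 CPM at 10 mM, 1.9 ± 0.163 CPM with acetate and 3.08 ± 0.388 CPM at 1 mM. CASP1, the gene of caspase-1, averaged at most 0.481 CPM in any group and was not called in any comparison. PYCARD, of the same list, had at most 1 count per library and was not tested.

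All 20 genes of the NF-kB and C/EBP list were tested, and 10 were lower and 3 higher with 10 mM than with 1 mM glucose (median −0.17), or 11 and 3 without 1 mM replicate 3 and acetate replicate 1. Over all tested genes 67.5% were called in that comparison, 33.8% lower and 33.7% higher, so the number called was not particular to this list. NFKBIZ, a nuclear inhibitor-like protein needed for IL6 induction in mouse cells, had 25.7 ± 1.64 CPM at 10 mM, 60.1 ± 4.83 CPM with acetate and 92.8 ± 11.2 CPM at 1 mM. Its changes were −1.85 ± 0.09 for 10 mM against 1 mM and −0.63 ± 0.09 for acetate (edgeR adjusted p = 1.9e-10 and 3.3e-04). CEBPB (−1.53) and CEBPG (−1.80) were lower with 10 mM too. Among the 3 higher was BCL3, an atypical inhibitor protein that acts in the nucleus (1.07, edgeR adjusted p = 3.2e-06). Of the NF-kB subunits, NFKB1 (−0.03, edgeR adjusted p = 0.66) and REL (0.42, 0.269) were not called. RELA (−0.21), NFKB2 (−0.32) and RELB (−0.88) were lower. The inhibitor NFKBIA was not called (0.11, edgeR adjusted p = 0.18). With acetate 5 of the 20 were lower, or 3 with library totals, and 1 was higher: BIRC3, an inhibitor of cell death that NF-kB switches on. BIRC3 had 4.38 ± 0.508 CPM at 10 mM, 16.8 ± 1.08 CPM with acetate and 12.7 ± 1.45 CPM at 1 mM, the order of IL8 and IL1B. TNFAIP3, a feedback inhibitor, fell with acetate (−0.41, edgeR adjusted p = 0.0111).

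Of the 14 factors that govern decay of AU-rich mRNAs, all tested, 5 were lower and 6 higher with 10 mM than with 1 mM glucose (9 higher with library totals, and 8 without 1 mM replicate 3 and acetate replicate 1). With acetate 3 were lower and none higher, or 3 and 1 without those libraries. ZFP36, whose protein destabilises AU-rich mRNAs, had 7.61 ± 0.364 CPM at 10 mM, 18.6 ± 1.57 CPM with acetate and 35.3 ± 2.45 CPM at 1 mM. Its changes were −2.21 ± 0.08 for 10 mM against 1 mM and −0.92 ± 0.07 for acetate (edgeR adjusted p = 6.1e-12 and 4.1e-06). ZC3H12A, an RNase that cuts IL6 mRNA in mouse cells, had 9.57 ± 0.488, 15 ± 1.55 and 22.1 ± 2.15 CPM in the same order, with changes of −1.21 and −0.56. ZFP36L1 was lower by 0.98 on the log2 scale with 10 mM, and its fall of 0.14 with acetate (edgeR adjusted p = 0.0389) was not called with library totals (adjusted p = 0.121). CNOT6, a subunit of the deadenylase that shortens poly(A) tails, was higher with 10 mM, by 0.90 against 1 mM and 0.72 against acetate (edgeR adjusted p = 4.9e-08 and 6.6e-07). Of the genes with a nonamer, IL1B, LIF and IL8 rose with acetate, PTGS2 fell, and IL11 and CXCL1 did not pass. Of those without a nonamer, IL1A and CCL2 rose too, and IL6 did not pass. A link between the nonamer and these changes was not tested.

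**Figure D5:**
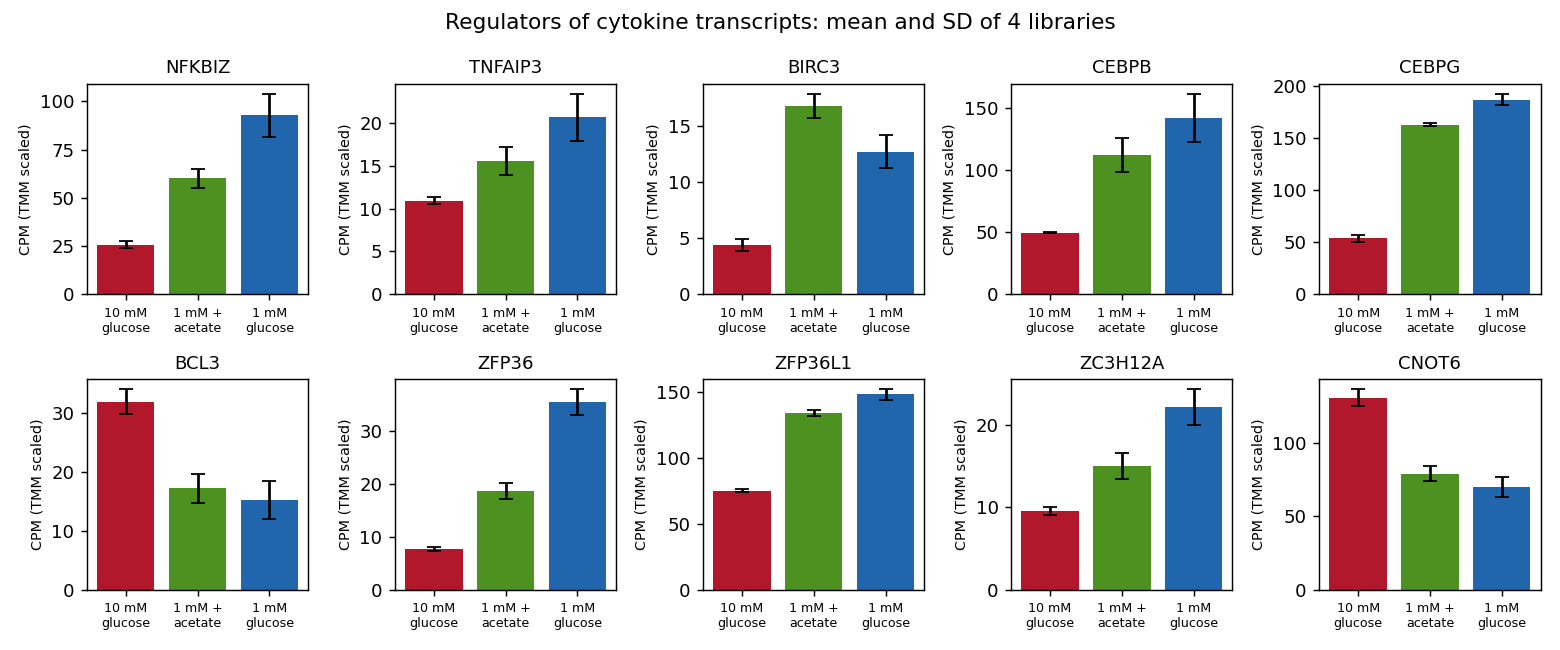
Mean level (vertical axes, TMM-scaled CPM from 0) of 10 of the 34 regulators of cytokine transcription and mRNA decay tested, with SD of 4 libraries as error bars. Bars are lowest at 10 mM for 8 of them, BIRC3 peaking with acetate at 16.8 CPM, and highest at 10 mM for BCL3 and CNOT6. The 10 are among those named in the text and do not stand for the 34. With 10 mM against 1 mM glucose, 10 of the 20 NF-kB and C/EBP genes were lower and 3 higher. Of the 14 decay factors 5 were lower and 6 higher.

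The genes whose profiles over the 12 libraries lay closest to those of IL6, IL8 and PTGS2 were sought among 11183 tested genes averaging at least 5 CPM, by the root mean square difference of centred log2 CPM. For PTGS2 the nearest was SESN2, a stress-induced sestrin, at 0.18, with changes of −3.61 for 10 mM against 1 mM glucose and −0.56 for acetate. SLC22A15 (0.198) and the stress factor ATF3 (0.21, with −3.81 and −0.74) came next. IL6 lay nearest to the secreted Wnt inhibitor DKK1 (0.191), the pentraxin PTX3 (0.212) and DERL3 (0.246), whose changes for 10 mM against 1 mM ranged from −3.25 to −3.13. IL8 lay nearest to BEST1 (0.213) and CLGN (0.222). Acetate changes were −0.56, −0.18 and −0.74 for the genes near PTGS2 and 0 to 0.23 for those near IL6, parts of the profiles by which they were picked.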

How the data were processed

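RNA from LN229 cells was sequenced with Illumina protocols after Trizol extraction, per the labels' protocols, and the authors deposited whole-number read counts per transcript for each of 12 libraries. The human build hg19 is named in the submitters' processing notes. The sources used here do not give the aligner, the counter, the read length or the use of strand, so reads of overlapping antisense genes could not be told apart. For each of 22257 genes the transcript marked as best in the files was used, or where none was marked (1362 genes, IL6 among them) that with the highest total. Genes were kept by edgeR's expression filter (14416), scaled by TMM and tested with edgeR 4.0.16 (R 4.3.3), by the quasi-likelihood test in 1 fit over all 12 libraries with no covariate and Benjamini-Hochberg adjustment over all tested genes. Intervals are 95%. The genes of the report and the gene lists were chosen with earlier results of these data known. Of each list the text names up to 3 called genes with the smallest p per comparison that averaged at least 1 CPM, and for IL6, IL8 and PTGS2 the 3 genes with the nearest profiles, of which 1 is not reported here. CXCL3, CXCL6, BCL3, PTGES2, PTGER2, CASP1, PYCARD, TNF, CXCR1, CXCR2 and the marker genes given at low levels were named after their values were seen. So were EGFR, NFKB1, NFKB2, REL, RELA, RELB and NFKBIA. Lengths and AU-rich sites came from GENCODE transcripts of the same accession, and promoters from RefSeq (GRCh38.p14), matched by symbol or current symbol. The alternatives were scaling by library totals or by DESeq2 size factors, limma-voom (limma 3.58.1), the Wald test of DESeq2 1.42.0, other filters on low counts, the 8 libraries compared alone, the transcript with the highest total, a replicate block, removal of the trend on length and GC content, and leaving out libraries.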

Additional observations from a re-analysis of the deposited data

Results flagged for a closer look

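In acetate, replicate 4 had 225 CPM of IL8, while the other 3 libraries of that group had 262 to 268 CPM. The gap to the nearest library was 0.874 of the group's range, past the 95% critical value of Dixon's test for 4 samples. IL8 was nonetheless above every 1 mM library there. In 10 mM glucose, replicate 4 had 0.109 CPM of CXCL2, which is 3 reads, while the other 3 libraries had none. With no read in the other 3 libraries, any count there is picked out, so the CXCL2 flag shows nothing about its size. Of 30 groups looked at (10 genes in 3 media), these 2 were picked out. Chance alone picks about 1 in 20, a rate for continuous values that does not hold for tied counts such as those of CXCL2.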

How the results depend on the processing

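Under each alternative run, 6 to 9 of the genes were called for 10 mM against 1 mM glucose, 4 to 7 for acetate against 1 mM glucose alone, and 7 to 9 for 10 mM glucose against acetate. Leaving out 1 library at a time gave 7 to 8, 4 to 7 and 8 to 9 calls in that order. The filter at 5 CPM removes IL1B and IL6 from the test. For 10 mM against 1 mM every call was lower except CCL2, called higher under 5 alternatives. With acetate only PTGS2 was called lower, and for 10 mM against acetate every call was lower. Over all 14416 tested genes, 10 mM against 1 mM gave 9725 calls, and 10526 with the length and GC trend removed. The filter at 5 CPM gave 7988 calls among 11194 genes. For 10 mM against acetate there were 9049 calls, and 10133 with the trend removed. Of 642 values recomputed for single genes, 615 kept direction and side of the threshold, 16 lost the call, 10 gained it and 1 changed sign: the IL6 change with acetate, at −0.02 (edgeR adjusted p = 0.923) without 1 mM replicate 2, over a range of −0.02 to 0.20. The calls of IL1A, IL1B, IL6, IL8, IL11, CXCL1 and PTGS2 for 10 mM against either other medium held in all alternatives in which the gene was tested. In the 8 libraries compared alone, IL1A with acetate gave 0.32 (adjusted p = 0.0515). The cause of these changes was not tested.

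The labels do not say that a number is shared between groups, and libraries of the same number did not all deviate together: correlations of their deviations from the group means ran from −0.365 to 0.27, 3 of 12 were over 0.1, and the best partner had the same number in 9 of 24. For 10 mM and 1 mM all 4 were positive (0.0645 to 0.27). With the replicate number as a block, 8, 7 and 9 genes were called for 10 mM against 1 mM, acetate against 1 mM, and 10 mM against acetate, CXCL1 with acetate being added (0.36, edgeR adjusted p = 0.0484) and LIF for 10 mM against 1 mM holding at −0.22 (adjusted p = 0.00383). With the length and GC trend removed as well as the block, 9, 7 and 8 were called.

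Over all genes, acetate calls numbered 1980, against 1056 with only the 8 libraries compared, 3728 without 1 mM replicate 3 and acetate replicate 1, 3956 with the length and GC trend removed, 3582 with that and the block, and 1196 to 2956 without 1 library. Of 210 values recomputed for the named genes of other lists, chosen as alternatives after seeing the data, 207 kept direction and call and 3 lost the call with library totals: ZFP36L1 (adjusted p = 0.121), PTGES3 (0.051) and the marker VIM (0.086), all with acetate. Depth limits CXCL2, with at most 3 counts per library, and IL6 at 10 mM, with 12 to 23.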
